A study of Mus musculus with 12 samples.

Results

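The genes described here are the mouse heat shock transcription factors and the proteins that bind or regulate them, followed across 12 RNA-seq libraries of mouse embryonic fibroblasts (MEFs). The members were taken by gene symbol: Hsf1, Hsf2, Hsf4, Hsf5, Hsbp1, Hsf2bp, Ier5 and Ier5l, which are 8 of the 54532 genes in the deposited table. Wild-type (WT) cells and CHIP-KO cells, which lack the ubiquitin ligase CHIP encoded by Stub1, were each measured without treatment and after 1 hour at 43 °C, with 3 libraries in each of the 4 groups. All libraries come from MEF cells, and neither genotype group carried a further allele or agent in the labels. How the knockout was made, and whether the cells were 1 clone, a line or primary cultures, is not given in the sources used here. The labels also leave unsaid whether replicates are independent cultures. A p-value here therefore reflects only how far these libraries scatter, and that scatter may be technical. Values are FPKM as deposited, that is, fragments divided by gene length and by a library scale.

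Heat shock factors are DNA-binding proteins that form trimers and bind heat shock elements, repeats of the letters nGAAn in alternating orientation, in front of chaperone genes. In unstressed cells HSF1 is held inactive by chaperones, and when misfolded protein draws these away it trimerizes, becomes phosphorylated and switches on the chaperone genes, without needing new Hsf1 mRNA. HSF2 can join HSF1 in mixed trimers and is known for roles in development, HSF4 is the factor of the lens, and HSF5 is a factor of the male germ line. HSBP1 binds the trimerization domain of HSF1, and HSF2BP, named as an HSF2-binding protein, acts with BRCA2 in meiotic recombination. IER5, an immediate early protein, is itself a target of HSF1 and brings the phosphatase PP2A to HSF1. IER5L is its paralog. CHIP binds HSC70, HSP70 and HSP90, and has also been described as an activator of HSF1.

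Of the 8 genes, 2 moved strongly with heat: Ier5 rose about 3-fold in both genotypes and Ier5l rose 2.57-fold in wild-type cells but 1.65-fold in CHIP-KO cells. The factor mRNAs moved little. Without heat, CHIP-KO cells held 1.25-fold less Hsf1 and 1.18-fold less Hsf2 than wild-type cells, and neither difference passed the test after heat. The direct test of a change in that difference with heat did not pass for either gene (limma adjusted p = 0.0926 and 0.117). The Hsf2 call without heat held in 21 of 25 alternative settings. Hsf5 and Hsf2bp were close to absent throughout. The values behind these statements follow by role, after the promoter sequences of the 2 heat-responsive genes.

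Ier5 (ENSMUSG00000056708) lies at chr1:155096361-155099636 on the minus strand of GRCm38, and Ier5l (ENSMUSG00000089762) at chr2:30471537-30474219, also on the minus strand. Both are single-exon genes. The 250 bases in front of each RefSeq start site (RefSeq, GRCm38.p6) are printed because these are the members that rose with heat, and a stretch of the promoter of Hspe1, the gene of the mitochondrial co-chaperonin HSP10, is printed as a classical heat shock element to set beside them. Capitals mark heat shock element letters (GAANNTTC or TTCNNGAA), the CCAAT box on either strand (CCAAT or ATTGG), and the TATA box letters TATATAA. The stretches are chr1:155099637-155099886 for Ier5, chr2:30474200-30474449 for Ier5l, both on the minus strand, and chr1:55088039-55088096 on the plus strand for Hspe1, and each is written 5′ to 3′.
Ier5: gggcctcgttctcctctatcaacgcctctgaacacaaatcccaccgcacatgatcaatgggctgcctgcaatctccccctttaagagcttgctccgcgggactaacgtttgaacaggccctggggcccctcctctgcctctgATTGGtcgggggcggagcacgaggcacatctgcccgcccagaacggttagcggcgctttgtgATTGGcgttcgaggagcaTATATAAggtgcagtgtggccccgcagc
Ier5l: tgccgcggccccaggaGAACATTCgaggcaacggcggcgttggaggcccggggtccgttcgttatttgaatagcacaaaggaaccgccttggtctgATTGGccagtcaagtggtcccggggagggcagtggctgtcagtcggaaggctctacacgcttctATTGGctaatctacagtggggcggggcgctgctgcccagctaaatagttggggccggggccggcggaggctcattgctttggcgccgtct
Hspe1: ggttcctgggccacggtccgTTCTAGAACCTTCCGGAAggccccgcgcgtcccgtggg

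The Ier5 window held no pair of inverted heat shock units (GAANNTTC or TTCNNGAA) in 250 bases before and 50 bases after the start. It held ATTGG at 108 and at 46 bases before the start and TATATAA at 28 bases before it. The Ier5l window held 1 pair, GAACATTC at 234 bases before the start, and ATTGG at 154 and at 90 bases before it. Across all 32851 windows of that length, 15.1% held a pair on either strand, 0.603% held 3 units in a row (such a pair with 1 more inverted unit 2 bases on, in either direction), 37.4% held CCAAT or ATTGG and 3.24% held TATATAA or TTATATA. A pair may form part of a run of 3 units and is then counted under both. Of 22 chaperone genes listed as HSF1 targets, 18 had a window, 12 of these held a pair and 4 held 3 units in a row. A gene was counted if any of its windows held the letters, whereas the shares above are per window. Hspd1 and Hspe1, both among the 4, have overlapping windows that hold the same run on opposite strands. In the Hspe1 stretch the units overlap in 1 run, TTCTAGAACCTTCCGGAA. Of the other members with a window, Hsf5 held 1 pair, TTCTGGAA at 185 bases before the start, and Hsf2, Hsbp1 and Hsf2bp held none. A match is a description of letters in these windows and not a binding site.

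Sequencing gave 15591924 to 20098901 fragments per unheated wild-type library, 17103444 to 19294361 after heat, 22894580 to 26244726 in unheated CHIP-KO cells and 19953642 to 26954112 in heated ones. The Stub1 level was 61.7 ± 3.63 FPKM (SD, n = 3) for wild-type cells and 55.4 ± 2.25 once heated. CHIP-KO cells had 0.971 ± 0.229 and 1.08 ± 0.0885 FPKM, which matches the labels. Replicate 1 of both wild-type groups stood apart from its partners (chi-square per degree of freedom 17.6 to 26.7, against 3.49 and 5.09 for the other wild-type pairs), and so did replicate 1 of the heated CHIP-KO group (10.4 and 16.6, against 3.40). Of 10 fibroblast markers, 9 passed the expression filter, and their summed level was 1617 to 1975 FPKM in unheated wild-type libraries, 2591 to 2910 in heated ones, 3356 to 3545 in unheated CHIP-KO libraries and 3872 to 4100 in heated ones. Without heat Thy1, a surface marker of many fibroblasts, had 0.00524 ± 0.00908 FPKM in the wild type and 8.28 ± 0.787 in the knockout. Markers of epithelial and endothelial cells stayed under the filter, 6 and 5 genes in all. Of 6 leukocyte markers 2 passed. Cd68 went from 2.41 to 13.4 FPKM with heat in wild-type cells and from 3.72 to 8.85 FPKM in CHIP-KO cells, and Cd14 went from 3.66 to 2.14 and from 2.43 to 1.43 FPKM. The 2 genotypes thus differed in fibroblast markers as well as in Stub1, and the part of this difference in the results below was not tested. In bulk libraries a smaller number of cells of a type and less RNA per cell cannot be told apart.

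**Figure D1:**
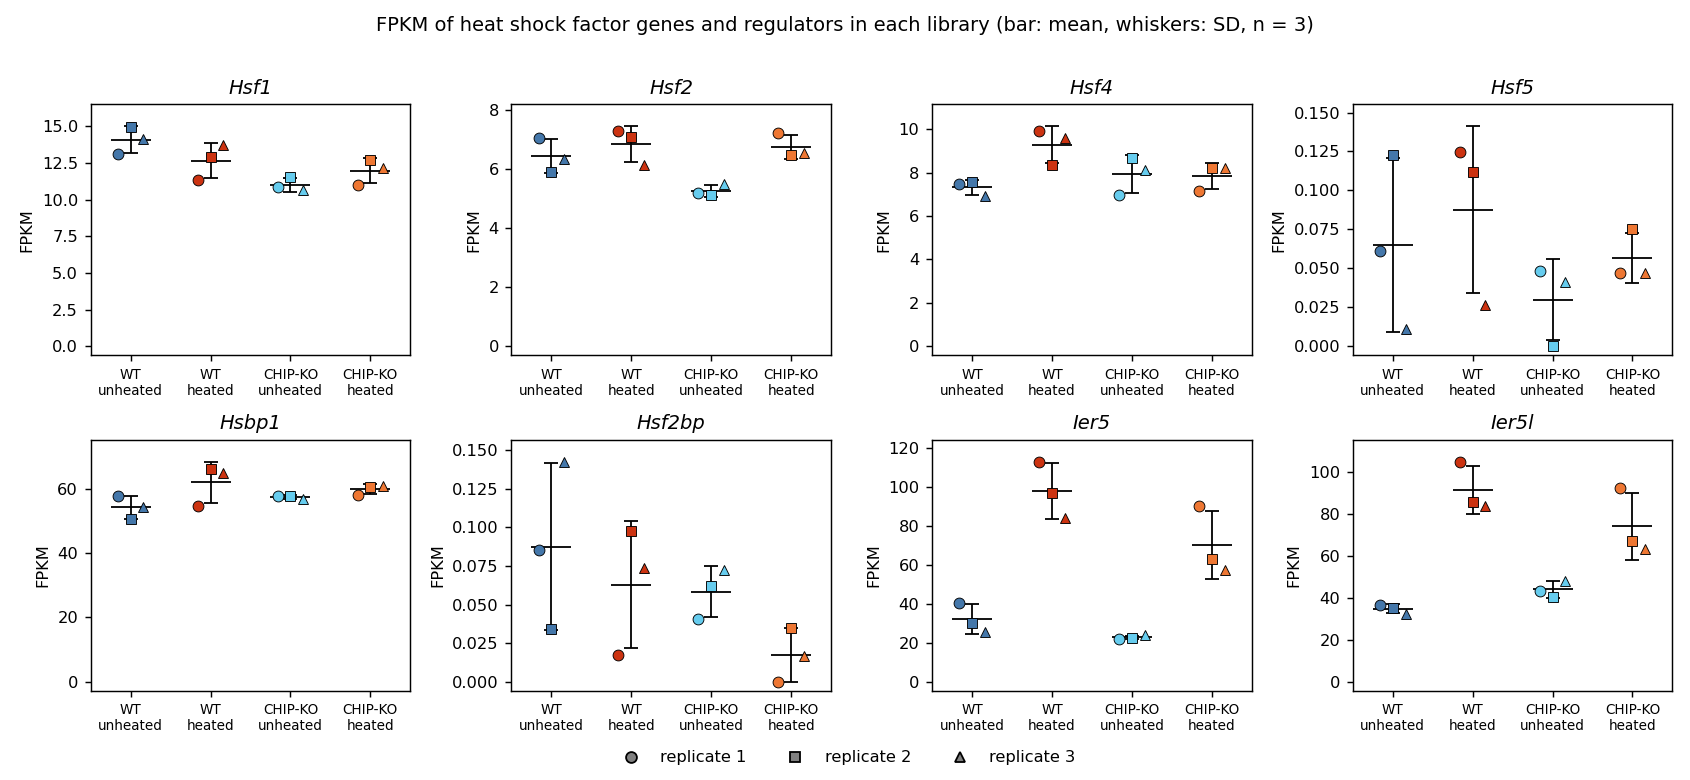
FPKM of each of the 8 genes (y axis, linear, a separate scale per panel) in the 4 groups, 1 symbol per library by replicate number, with the group mean as a long bar and the SD (n = 3) as whiskers. Heated libraries of Ier5 and Ier5l lie above all unheated ones, while the panels of Hsf5 and Hsf2bp do not reach 0.15 FPKM.

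Hsf1 (chr15:76477422-76501913, plus strand), the main factor of the heat shock response, was present in every library. It measured 13.1, 15.0 and 14.1 FPKM in unheated wild-type replicates 1, 2 and 3, and 10.8, 11.6 and 10.7 FPKM in unheated CHIP-KO cells. All 3 CHIP-KO libraries were below all 3 wild-type libraries. In limma's test the knockout was 1.25-fold lower (log2 difference of FPKM + 1 of -0.32, SE 0.08, adjusted p = 0.00470). The lower Hsf1 level of unheated knockout cells was called in the main fit and in each of the 25 other ways of processing, scaling or leaving out libraries that were run.

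After heat the Hsf1 levels of the genotypes overlapped. Heated wild-type libraries held 11.3, 12.9 and 13.7 FPKM and heated CHIP-KO libraries 11.0, 12.7 and 12.2 FPKM. The genotype difference was then -0.07 on the log2 scale (95% interval -0.24 to 0.10, limma adjusted p = 0.493). Heat itself moved Hsf1 by -0.15 in wild-type cells (limma adjusted p = 0.126) and by 0.11 in CHIP-KO cells (limma adjusted p = 0.357), with overlapping libraries in both. With equal sums per library, which moved the median of all genes by -0.21 and -0.29 in these comparisons, the Hsf1 changes were -0.37 and -0.20, and both were called as lower (limma adjusted p = 9.81e-04 and 0.0283). The difference between these 2 responses, 0.25 (95% interval 0.01 to 0.49), did not pass (limma adjusted p = 0.0926). It passed with limma's library weights (adjusted p = 0.00842) and without the 3 libraries that stood apart (limma adjusted p = 0.0163), at 0.26 and 0.28. Interaction calls over all genes were 4581 in the main fit and 7403 and 5497 in these settings. The change of Hsf1 with heat in CHIP-KO cells was 0.16 in both of these settings and was then called as higher (limma adjusted p = 0.0184 and 0.0368), opposite to the call with equal sums. Library weights also gave a called genotype difference after heat (-0.11, limma adjusted p = 0.0463).

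Hsf2 (chr10:57486385-57513135, plus strand), the partner of HSF1 in mixed trimers, had its lowest values in unheated CHIP-KO cells. There it measured 5.19, 5.11 and 5.50 FPKM, against 7.04, 5.89 and 6.36 FPKM in unheated wild-type cells. The groups did not overlap, and the knockout was 1.18-fold lower (-0.24, SE 0.08, limma adjusted p = 0.0196). This call was lost without unheated wild-type replicate 1 (limma adjusted p = 0.0713), and without unheated CHIP-KO replicate 1 or 2 (limma adjusted p = 0.0577 and 0.0659), and without both wild-type replicates 1 (0.0502).

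With heat Hsf2 went to 7.23, 6.49 and 6.56 FPKM in CHIP-KO cells, above every unheated library of that genotype. This was a 1.24-fold rise (0.31, SE 0.08, limma adjusted p = 0.0154). Scaling each library to an equal sum of FPKM, which moved the median of all genes with heat in CHIP-KO cells by -0.29, left a change of 0.02 (limma adjusted p = 0.859). The call was also lost without heated CHIP-KO replicate 1 and without unheated CHIP-KO replicate 1 or 2 (limma adjusted p = 0.0568, 0.0539 and 0.0605). In wild-type cells Hsf2 was 7.29, 7.08 and 6.15 FPKM after heat, within reach of the unheated libraries (0.08, limma adjusted p = 0.403). The response of CHIP-KO cells minus that of wild-type cells was 0.23 (95% interval -0.0039 to 0.46, limma adjusted p = 0.117), and it was called in 1 of 24 alternative settings, library weights (0.24, limma adjusted p = 0.0122). After heat the genotypes stood 0.01 apart on the log2 scale (limma adjusted p = 0.908).

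Hsf4 (chr8:105269801-105275845, plus strand), the lens factor, was present at levels between 6.93 and 9.93 FPKM. Heat took it from 7.46, 7.58 and 6.93 FPKM to 9.93, 8.33 and 9.58 FPKM in wild-type cells, with no overlap, a 1.23-fold rise (0.30, SE 0.09, limma adjusted p = 0.0107). Without both wild-type replicates 1 the limma adjusted p was 0.0541, and with equal sums per library it was 0.401. In CHIP-KO cells Hsf4 was 6.98, 8.69 and 8.11 FPKM before and 7.15, 8.19 and 8.20 FPKM after heat, which overlap (-0.01, limma adjusted p = 0.950). With equal sums per library this change was -0.31 and called (limma adjusted p = 0.0114). The difference between these responses was -0.31 (95% interval -0.58 to -0.04) and did not pass (limma adjusted p = 0.0680). It was called in 5 of 24 alternative settings, among them those without unheated CHIP-KO replicate 1 (-0.39, limma adjusted p = 0.0275) and without heated wild-type replicate 2 (-0.38, limma adjusted p = 0.0304). After heat the 3 CHIP-KO libraries lay below the 3 wild-type libraries (-0.22, limma adjusted p = 0.0653). This difference was called in 7 of 25 alternative settings, among them those without the same 2 libraries, each in turn (limma adjusted p = 0.0464 and 0.0270), and its sign was the same in all 25. Hsf4 rests on 206 to 411 fragments per library, the fewest among the 6 genes that were tested. Lens markers were low: the sum of 6 of them (Cryaa, Cryba1, Crygs, Mip, Bfsp1 and Lim2) was 0.0748 to 0.373 FPKM in unheated and 0.674 to 1.77 FPKM in heated wild-type libraries, and 0.123 to 0.136 and 0.551 to 0.793 FPKM in CHIP-KO libraries. The rise of that sum with heat came mostly from Crygs, which went from 0.0179 to 1.03 FPKM in wild-type cells, and its part in the Hsf4 result was not tested.

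Hsf5 (chr11:87617164-87659542, plus strand), the male germ line factor, did not pass the filter of 1 FPKM in at least 3 libraries. It had 0 to 10 fragments per library, 59 in all, which is at most 0.125 FPKM. In unheated CHIP-KO replicate 2 no fragment was counted, which allows up to 0.0267 FPKM at 3 fragments. The germ cell markers Ddx4, Dazl, Stra8, Sycp3, Piwil1 and Tex101 together summed to 0.159 to 0.506 FPKM, and none of these 6 passed the filter. Differences in Hsf5 between groups were not tested.

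Length matters for the order of the factors. For Hsf1, Hsf2 and Hsf4 the deposited FPKM divide by the union of all exons in GENCODE M21. For Hsf1 this union is 7099 bases against 2084 bases for the principal transcript, and for Hsf2 9606 against 2604 bases. Hsf2bp differs, with a deposited length of 2973 bases against a union of 3589 bases. For Hsf4 the lengths are 1753 and 1739 bases. In FPKM as deposited the levels in unheated wild-type cells were 14.1 ± 0.920 for Hsf1, 7.32 ± 0.344 for Hsf4 and 6.43 ± 0.577 for Hsf2 (SD, n = 3). Per kilobase of principal transcript they became 47.9 ± 3.13 for Hsf1, 23.7 ± 2.13 for Hsf2 and 7.38 ± 0.347 for Hsf4. This second scale credits every fragment of a gene to its principal transcript. It is thus an upper limit where fragments came from exons outside that transcript. Hsf4 exceeded Hsf2 in 11 of 12 libraries on the first scale and in 0 of 12 on the second. Hsf1 was above Hsf2 and above Hsf4 in all 12 libraries on both scales. Ratios of FPKM between groups within a gene do not depend on the length, whereas differences of log2(FPKM + 1) do so slightly.

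**Figure D2:**
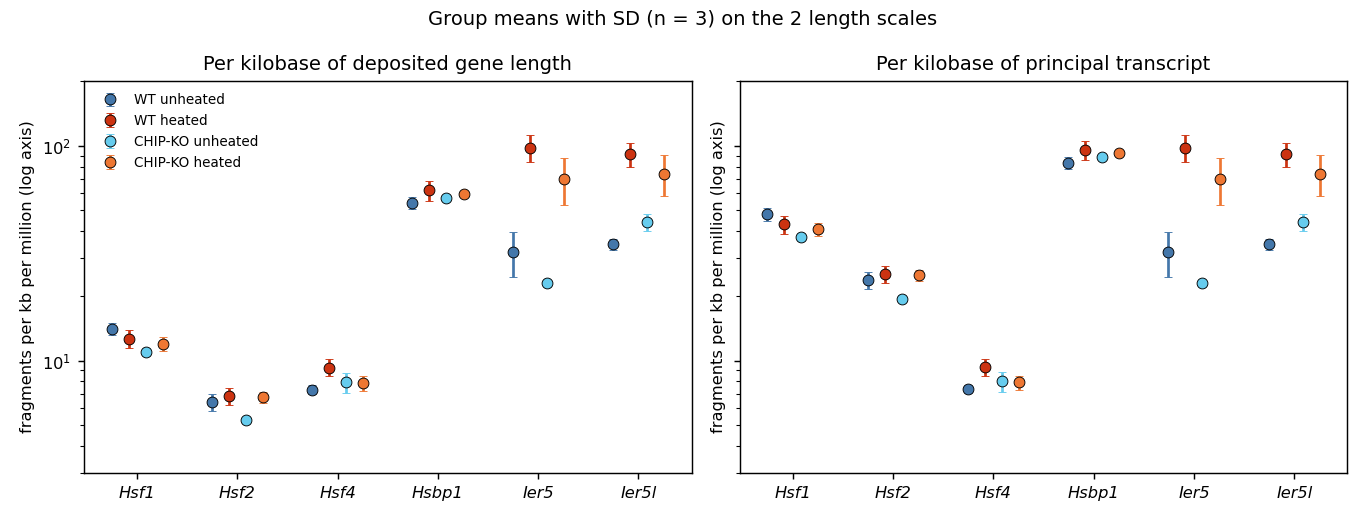
Group means with SD (n = 3) of the 6 tested genes, as deposited (left) and per kilobase of principal transcript (right), both on a log axis of library-scaled fragments per kilobase. Hsf2 moves from below Hsf4 to above it, and Hsf1 moves from below Ier5 and Ier5l into their range.

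Hsbp1 (chr8:119344488-119348922, plus strand), whose product binds HSF1 trimers, was the steadiest of the tested members. Wild-type libraries held 57.6, 50.4 and 54.4 FPKM without heat and 54.6, 66.2 and 65.0 FPKM with it. These values overlap, and the 1.14-fold difference reached a limma adjusted p of 0.0468. The call held in 9 of 25 alternative settings and was lost, for example, with equal sums per library (-0.05, limma adjusted p = 0.498), without wild-type replicate 2 or 3 of either treatment, and without any single CHIP-KO library. Without the 3 libraries that stood apart the change was 0.32 (limma adjusted p = 2.42e-04), and the interaction of Hsbp1 was then -0.24 and called (limma adjusted p = 0.00862), against -0.13 with all libraries (limma adjusted p = 0.358). Calls over all genes in that setting were 7850 for heat in wild-type cells and 5497 for the interaction, against 7640 and 4581. CHIP-KO libraries held 57.6, 57.8 and 56.8 FPKM before and 57.9, 60.4 and 60.9 FPKM after heat. The heated libraries of this genotype were all above the unheated ones, at a difference of 0.06 that did not pass (limma adjusted p = 0.641) and was -0.28 and called with equal sums per library (limma adjusted p = 0.00178). Genotype moved Hsbp1 by 0.08 without heat and by -0.05 after heat (limma adjusted p = 0.375 and 0.654), and each was called in 3 of 25 alternative settings, library weights and both settings that leave out several libraries. Relative to Hsf1 in the same library, on the deposited FPKM scale, Hsbp1 stood at 3.87 ± 0.511 in unheated and 4.90 ± 0.215 in heated wild-type cells, and at 5.21 ± 0.185 and 5.003 ± 0.252 in CHIP-KO cells (SD, n = 3).

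Hsf2bp (chr17:31944769-32034508, minus strand), the BRCA2 partner, had 0 to 9 fragments per library and 41 in all, at most 0.143 FPKM. The groups held 15, 10, 13 and 3 fragments in the order unheated wild type, heated wild type, unheated CHIP-KO and heated CHIP-KO. Heated CHIP-KO replicate 1 had none, which allows up to 0.0395 FPKM at 3 fragments. In CHIP-KO cells the heated libraries held 0, 2 and 1 fragments and the unheated ones 3, 5 and 5, which do not overlap. Differences in Hsf2bp were not tested. Of 10 genes listed as its partners and as meiotic recombination genes, 3 passed the filter.

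Ier5 was the most heat-responsive member. In wild-type replicates 1, 2 and 3 it measured 40.6, 30.3 and 25.7 FPKM without heat and 113, 96.8 and 84.2 FPKM after it. Heat raised it 3.01-fold (95% interval 2.28 to 3.99, limma adjusted p = 2.79e-05). In CHIP-KO cells it went from 22.2, 22.6 and 23.8 FPKM to 90.1, 63.2 and 57.4 FPKM, a 2.93-fold rise (95% interval 2.21 to 3.88, limma adjusted p = 3.14e-04). Every heated library exceeded every unheated library of both genotypes. By size of rise it ranked 299 of 13023 tested genes in wild-type cells and 143 in CHIP-KO cells. The difference between the genotypes' responses was -0.04 on the log2 scale (95% interval -0.61 to 0.53, limma adjusted p = 0.920). As a ratio of folds that interval runs from 0.654 to 1.45.

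Ier5 was lower in knockout cells at both treatments without passing the test. Without heat all 3 CHIP-KO libraries lay below all 3 wild-type libraries (-0.45, SE 0.18, limma adjusted p = 0.0639). After heat heated CHIP-KO replicate 1, at 90.1 FPKM, lay above 1 wild-type library (-0.49, SE 0.18, limma adjusted p = 0.0509). Replicate 1 was the highest in 3 of the 4 groups, the same libraries that stood apart over all genes. Without those 3 libraries the differences were -0.28 and -0.58, and both passed (limma adjusted p = 0.0232 and 0.00126). The libraries were chosen for their scatter after the data were seen, which favours passing. Calls over all genes also rose, from 6311 to 7206 without heat and from 5525 to 6376 after it. Across 25 alternative settings the lower level was called in 8 without heat and in 12 after it, and its sign was the same in all of them.

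Ier5l, the paralog, began from a similar level and had a different pattern across genotypes. It measured 36.6, 35.4 and 32.4 FPKM in unheated wild-type cells and 105, 85.6 and 83.8 FPKM after heat. The rise was 2.57-fold (95% interval 2.09 to 3.16, limma adjusted p = 9.46e-06). In CHIP-KO cells it started from 43.4, 40.3 and 48.2 FPKM, above every unheated wild-type library, and reached 92.4, 67.0 and 63.1 FPKM, a rise of 1.65-fold (95% interval 1.34 to 2.03, limma adjusted p = 0.00409). The response of CHIP-KO cells was 1.56-fold smaller than that of wild-type cells (-0.64, SE 0.19, limma adjusted p = 0.0241). This interaction was called in 18 of 24 alternative settings. It was lost, at a limma adjusted p of up to 0.0609, with no filter on low values, without both wild-type replicates 1, and without heated CHIP-KO replicate 2 or 3, unheated CHIP-KO replicate 3 or unheated wild-type replicate 3. Without the 3 libraries that stood apart it was -0.74 (limma adjusted p = 0.00105), where interaction calls over all genes were 5497 against 4581 in the main fit.

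Taken at each treatment alone, the genotype difference of Ier5l did not pass: 0.33 without heat and -0.31 after heat (limma adjusted p = 0.0677 and 0.0888). Without the 3 libraries that stood apart these were 0.36 and -0.38, and both passed (limma adjusted p = 0.00322 and 0.00523). In that setting 7206 and 6376 of all genes passed, against 6311 and 5525 in the main fit. Without heat the 2 genotypes did not overlap, and after heat they did. Relative to Hsf1 in the same library, on the deposited FPKM scale, Ier5l stood at 2.48 ± 0.269 in unheated and 7.34 ± 1.67 in heated wild-type cells, and at 4.01 ± 0.517 and 6.28 ± 1.82 in CHIP-KO cells (SD, n = 3). The same ratio for Ier5 was 2.31 ± 0.685 and 7.88 ± 1.94, then 2.08 ± 0.140 and 5.95 ± 1.93. Such a ratio does not depend on the scaling between libraries. Both genes use 1 transcript model each, so their FPKM can be set side by side. Ier5 was above Ier5l in 4 of 12 libraries, and the 2 stood within the spread of libraries in the heated groups.

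**Figure D3:**
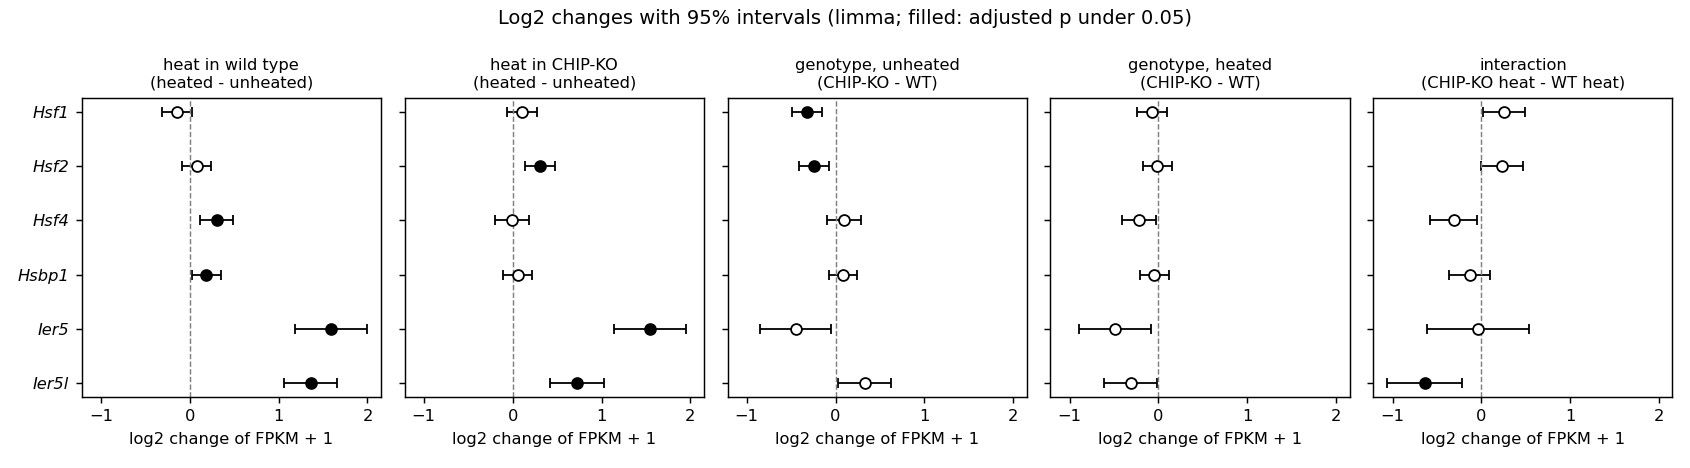
Log2 changes of FPKM + 1 for the 6 tested genes in the 5 comparisons, with 95% intervals from limma on 12 libraries and filled points where the adjusted p is under 0.05. Ier5 and Ier5l lie to the right of the other 4 genes with heat in both genotypes, and the interaction is filled for Ier5l alone. In CHIP-KO cells the heat intervals of Ier5l and Hsf2 overlap.

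Counted over the 6 tested members, heat raised 4 in wild-type cells (Hsf4, Hsbp1, Ier5 and Ier5l, with Hsbp1 the call that seldom held) and lowered 0, where 58.7% of all tested genes were called, 28.1% higher and 30.5% lower. In CHIP-KO cells heat raised 3 (Hsf2, Ier5 and Ier5l) and lowered 0, against 20% of all genes called, 8.65% higher and 11.4% lower. CHIP-KO cells without heat had 2 lower members (Hsf1 and Hsf2), 0 higher, against 48.5% of all genes called, 23.9% higher and 24.5% lower. After heat 0 passed in limma's test, 3 had an unadjusted p under 0.05, and 42.4% of all genes were called, 23.3% higher and 19.1% lower. The interaction was called for 1 member in the lower direction, against 35.2% of all genes, 17.9% higher and 17.3% lower. Libraries of the compared groups did not overlap for 3 of the 6 with heat in wild-type cells (60.4% of all genes), 4 with heat in CHIP-KO cells (48.7%), 4 between genotypes without heat (61.2%) and 1 between genotypes after heat (50.4%). The median change of the 6 members with heat was 0.24 in wild-type cells and 0.21 in CHIP-KO cells, beside -0.016 and -0.0018 over all tested genes. The heat calls over all genes were 3664 higher and 3976 lower in wild-type cells and 1126 and 1481 in CHIP-KO cells. With equal sums per library these became 2343 and 6195, and 547 and 8211, and with voom on the recovered fragments the CHIP-KO calls were 905 and 3019. The 3-against-3 design allows no exact permutation p under 0.1 for a single gene, so single values rest on limma's shared estimate of spread.

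Among the genes whose pattern was most like Ier5 were Dnaja4 and Rnasek. Likeness was the root mean square difference of log2(FPKM + 1) over 12 libraries after centring each gene, among 10755 protein-coding genes, and only members whose group means spanned at least 1 on the log2 scale were compared. Both had a distance of 0.254, and Ier5l was at rank 62 with 0.403. Dnaja4, an HSP40 co-chaperone, went from 2.10 ± 0.247 to 8.35 ± 2.18 FPKM in wild-type cells and from 1.66 ± 0.106 to 7.66 ± 1.65 FPKM in CHIP-KO cells (SD, n = 3). Rnasek was low, between 0.674 ± 0.0833 and 4.40 ± 2.17 FPKM by group. The added 1 shrinks the changes of low genes such as these, so likeness here is not likeness of FPKM folds.

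For Ier5l the 3 nearest genes were Six4 (0.111), Bambi (0.133) and Mxd1 (0.139). Six4, a homeobox factor, went from 2.30 ± 0.172 to 8.09 ± 1.16 FPKM with heat in wild-type cells and from 3.07 ± 0.0286 to 6.38 ± 0.607 FPKM in CHIP-KO cells (SD, n = 3). Bambi, a decoy receptor of the TGF-beta family, went from 0.541 ± 0.0429 to 2.94 ± 0.378 and from 0.765 ± 0.198 to 2.12 ± 0.530 FPKM. Mxd1, a partner of MAX, went from 2.80 ± 0.463 to 8.34 ± 2.73 and from 3.44 ± 0.0494 to 6.01 ± 1.05 FPKM. All 3 shared with Ier5l a higher start and a lower heated level in CHIP-KO cells, which is what the measure selects. All 3 are also low, so the added 1 shrinks their changes beside those of Ier5l. The group means of the other 4 tested members spanned 0.187 to 0.325 on the log2 scale, too little for such a search.

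**Figure D4:**
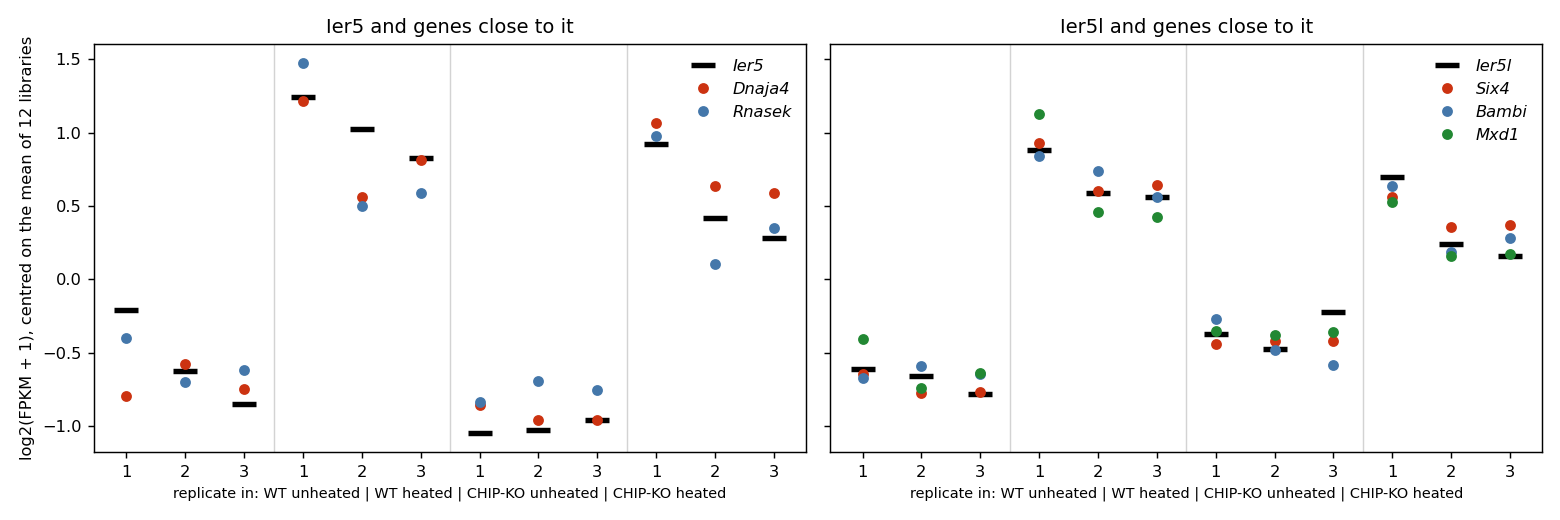
Log2(FPKM + 1) centred on the mean over 12 libraries for Ier5 (left, black bars) and Ier5l (right, black bars) with the genes close to each that are named in the text as coloured points, by library along the x axis. By group mean, Ier5 and its neighbours sit lowest in unheated CHIP-KO cells, Ier5l and its neighbours lowest in unheated wild-type cells.

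Among other genes of the HSF and IER families, Hsf3 and Hsfy2 were listed at 0 in all 12 libraries and Hsbp1l1 stayed under the filter. Ier2, an immediate early gene and relative of Ier5, went from 33.3 ± 7.49 to 142 ± 38.6 FPKM with heat in wild-type cells (4.11-fold, limma adjusted p = 5.84e-05). In CHIP-KO cells it started at 109 ± 15.1 FPKM, 3.24-fold above wild type (limma adjusted p = 2.85e-04), and reached 224 ± 83.8 FPKM, a rise of 1.97-fold (limma adjusted p = 0.0226). Ier3, another immediate early gene, had values of 17.1 ± 1.65 and 59.3 ± 15.4 FPKM in wild-type cells and 43.8 ± 1.63 and 70.7 ± 29.6 FPKM in CHIP-KO cells. Its rise in wild-type cells was 3.26-fold (limma adjusted p = 1.2e-04), and that in CHIP-KO cells did not pass (limma adjusted p = 0.104). The responses of both genes were smaller in CHIP-KO cells, by -1.06 for Ier2 and -1.10 for Ier3 (limma adjusted p = 0.0454 and 0.0278).

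Chaperone genes listed as HSF1 targets were set beside the members. The part of HSF1 in their changes was not tested. Of 22 such genes, all tested, heat raised 14 and lowered 5 in wild-type cells, with a median log2 change of 0.59, and raised 19 and lowered 0 in CHIP-KO cells, with a median of 1.07. Over all tested genes heat raised 28.1% and lowered 30.5% in wild-type cells, and raised 8.65% and lowered 11.4% in CHIP-KO cells. Hspb1, a small heat shock protein, went from 88.4 ± 8.75 to 1548 ± 590 FPKM in wild-type cells (16.6-fold, limma adjusted p = 1.69e-07) and from 85.4 ± 2.16 to 1528 ± 402 FPKM in CHIP-KO cells (17.3-fold, limma adjusted p = 1.79e-06). Hspa1a and Hspa1b, the inducible HSP70 genes, rose more, but they are near-identical copies whose fragments the counting may have split. Without heat CHIP-KO cells had 14 of the 22 lower and 3 higher, with a median of -0.48, against 24.5% lower and 23.9% higher over all genes. Hspe1, whose element is printed above, was 161 ± 8.76 FPKM in wild-type and 71.8 ± 3.47 FPKM in CHIP-KO cells. After heat 6 were higher and 2 lower, against 23.3% and 19.1% of all genes. The interaction was called for 10, all with a more positive heat change in CHIP-KO cells, such as Hsp90aa1 at 0.98 (limma adjusted p = 0.0125). Over all genes 35.2% were called, 17.9% in that direction. The 5 genes that heat lowered in wild-type cells are among these 10. Hspa4l, for example, changed by -0.92 in wild-type and by 0.02 in CHIP-KO cells. Hsp90aa1 started lower in CHIP-KO cells (198 against 369 FPKM) and reached 597 against 560 FPKM after heat. In the interaction Ier5l was called in the other direction and Ier5 was not called. The direction of each of these counts was the same under the 4 other scalings of the HSF1 chaperone targets, with heat in wild-type cells 11 higher and 6 lower at equal sums per library. Without the libraries that stood apart the interaction was called for 17 of the 22, and the counts with heat were 14 higher and 6 lower in wild-type cells and 20 and 0 in CHIP-KO cells. Between heated genotypes 11 were then higher and 2 lower. Over all 13023 genes the interaction calls in that setting were 5497, and the calls between heated genotypes 3480 higher and 2896 lower. The heat calls over all genes were then 3806 higher and 4044 lower in wild-type cells and 2042 and 2447 in CHIP-KO cells.

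PP2A, the phosphatase that IER5 brings to HSF1, had 6 of 8 listed subunit genes above the filter. Heat lowered 4 in wild-type cells (median -0.27) and 0 in CHIP-KO cells, where it raised 1. Over all tested genes heat lowered 30.5% in wild-type cells, and lowered 11.4% and raised 8.65% in CHIP-KO cells. Ppp2r1a, the main scaffold subunit, went from 97.2 ± 13.2 to 65.2 ± 7.95 FPKM in wild-type cells (limma adjusted p = 5.11e-04) and was 78.8 ± 0.331 and 75.01 ± 1.998 FPKM in CHIP-KO cells. Ppp2cb, a catalytic subunit, went from 67.3 ± 9.91 to 46.6 ± 2.83 FPKM in wild-type cells (limma adjusted p = 7.59e-04) and was 65.0 ± 4.71 and 60.8 ± 2.68 FPKM in CHIP-KO cells. Ppp2r2a, the B55 alpha regulatory subunit through which IER5 binds PP2A, rose 1.30-fold in heated CHIP-KO cells, from 17.3 ± 0.714 to 22.8 ± 1.27 FPKM (limma adjusted p = 8.39e-04). The interaction was called for 5 of the 6, all with a more positive heat change in CHIP-KO cells (median over the 6 of 0.39), against 35.2% of all genes. With equal sums per library the PP2A subunits had 4 lower and 0 higher with heat in CHIP-KO cells, and the interaction was called for 2. Over all 13018 genes tested there, 8211 were lower and 547 higher, and 4634 had a called interaction. Without both wild-type replicates 1, 3 subunits were lower with heat in wild-type cells, as were 3854 of all 13023 genes.

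**Figure D5:**
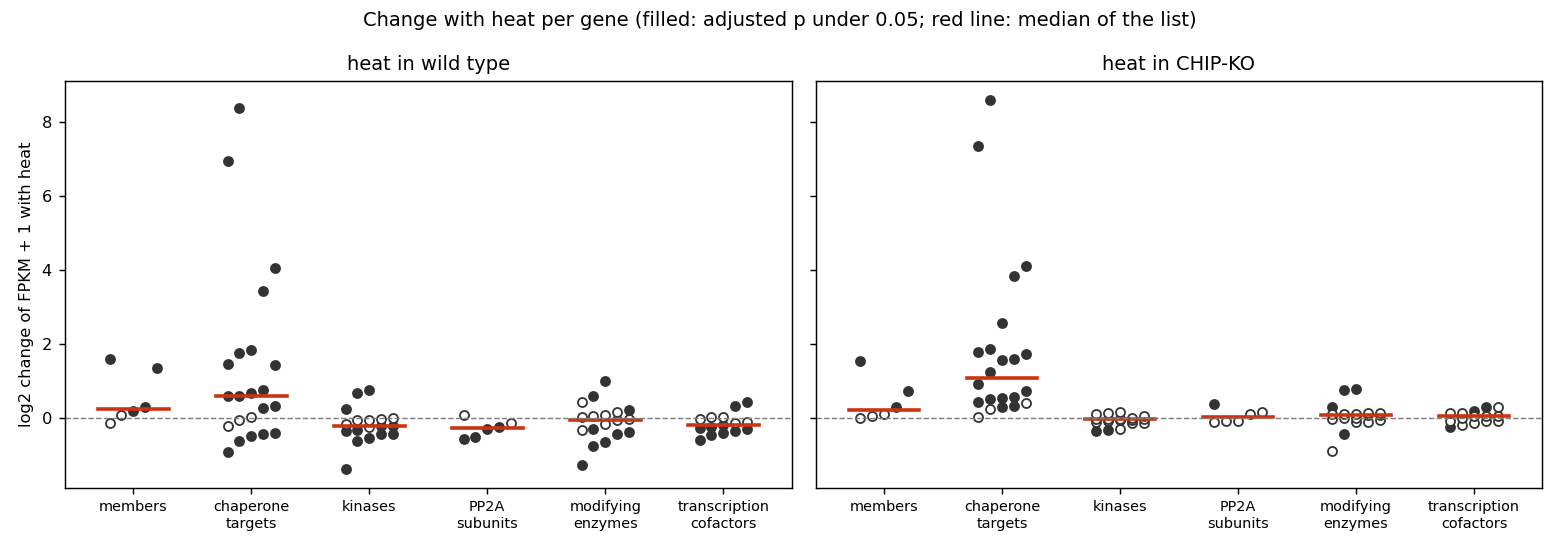
Log2 change of FPKM + 1 with heat per gene for the 6 tested members and 5 lists around them, in wild-type (left) and CHIP-KO cells (right), filled where limma's adjusted p is under 0.05, with the list median as a red line. The chaperone targets reach above 8, the members stay under 2, and the filled points of the 4 regulator lists lie within 1.5 of 0.

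The other regulators of HSF1 are read against all tested genes, of which 58.7% were called with heat in wild-type cells, 20% with heat in CHIP-KO cells, 48.5% between genotypes without heat and 42.4% after it. By direction, heat raised 28.1% and lowered 30.5% in wild-type cells, and raised 8.65% and lowered 11.4% in CHIP-KO cells. CHIP-KO cells had 23.9% higher and 24.5% lower without heat, and 23.3% and 19.1% after it. Of 18 kinases and phosphatases acting on HSF1, heat raised 3 and lowered 9 in wild-type cells (median -0.22) and raised 0 and lowered 2 in CHIP-KO cells (median -0.04). Plk1, a mitotic kinase that phosphorylates HSF1, went from 76.9 ± 6.48 to 28.9 ± 4.25 FPKM in wild-type cells (limma adjusted p = 1.33e-06) and was 50.04 ± 2.62 and 45.8 ± 3.80 FPKM in CHIP-KO cells. Mapk3, the kinase ERK1, went the other way, from 75.2 ± 4.35 to 122 ± 12.6 FPKM in wild-type cells (limma adjusted p = 1.53e-05), and was 99.97 ± 3.49 and 97.8 ± 1.27 FPKM in CHIP-KO cells. Its interaction was -0.72 (limma adjusted p = 3.4e-04). Between genotypes 3 of the 18 were higher and 5 lower in CHIP-KO cells without heat, and 6 and 3 after it. Of 18 enzymes that acetylate, SUMOylate or ubiquitinate HSF1 or HSF2, or reverse this, heat raised 3 and lowered 6 in wild-type cells and raised 3 and lowered 1 in CHIP-KO cells. Crebbp, the acetyltransferase CBP, went from 5.03 ± 0.599 to 11.3 ± 3.04 FPKM in wild-type and from 4.35 ± 0.109 to 8.32 ± 0.452 FPKM in CHIP-KO cells (limma adjusted p = 1.06e-04 and 0.00282). Sirt1, a deacetylase of HSF1, rose 1.51-fold with heat in wild-type cells and 1.68-fold in CHIP-KO cells (limma adjusted p = 0.00102 and 0.00135), with an interaction of 0.15 that did not pass (limma adjusted p = 0.501). Stub1 itself is on this list, which had 8 lower and 1 higher in CHIP-KO cells without heat. With equal sums per library the heat counts in CHIP-KO cells turned mostly lower, 17 of the 18 kinases and phosphatases acting on HSF1 among them. Over all 13018 genes tested there, 8211 were lower.

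Of 15 transcription cofactors of HSF1, heat raised 2 and lowered 8 in wild-type cells (median -0.20) and raised 2 and lowered 1 in CHIP-KO cells (median 0.04). Over all tested genes heat raised 28.1% and lowered 30.5% in wild-type cells, and raised 8.65% and lowered 11.4% in CHIP-KO cells. Rpa1, the replication protein that helps HSF1 reach DNA in chromatin, was 69.2 ± 2.19 FPKM in wild-type and 46.6 ± 0.374 FPKM in CHIP-KO cells without heat (limma log2 difference -0.56). Daxx, which can relieve the repression of HSF1 trimers, was higher in CHIP-KO cells, at 33.3 ± 2.01 against 15.95 ± 0.0816 FPKM without heat (2.02-fold, limma adjusted p = 1.98e-07) and 27.7 ± 0.444 against 16.3 ± 1.40 FPKM after it (1.67-fold, limma adjusted p = 3.84e-06). After heat 7 of the 15 were higher in CHIP-KO cells and 2 lower, against 23.3% and 19.1% of all genes.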

How the data were processed

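Poly(A) RNA of 12 MEF samples was sequenced. Per the submitters' processing notes, HISAT2 aligned the reads. For the aligner version, counting tool and annotation the sources used here give nothing. The authors deposited FPKM per gene. Multiplied by gene length, each library's values above 0 were whole numbers of a fixed step in 100% of cases (tolerance 0.01). This gave the fragments per library, and the deposited scale equalled median-of-ratios factors of those fragments over 15581 genes. Limits from fragments cover counting error only. Lengths, positions and transcripts were set beside GENCODE M21, which holds 54495 of 54532 identifiers. Promoter windows came from RefSeq (GRCm38.p6), with 6 of 8 members matched.

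A filter of 1 FPKM, reached by at least 3 of 12 libraries, left 13023 genes. limma 3.58.1 (R 4.3.3) was fitted to log2(FPKM + 1) with 4 group means and a mean-dependent variance trend, two-sided, and p-values were adjusted over all these genes by Benjamini-Hochberg with a threshold of 0.05. Folds refer to FPKM + 1 and are too small for low genes. The fit was run on simulated counts with the same spread in all libraries and few changed genes. No library stood apart there, so that run does not give the rate of false calls in these data. The members and the 13 gene lists (regulators, targets and cell type markers) were chosen with earlier results of these data known. All members are named. Per list and comparison at most 3 called genes are named, by size of change among those without overlap and with at least 2 FPKM on average in the higher group. Crygs, Thy1, Hspe1 as a promoter example and the levels of listed genes in comparisons where that rule does not name them were chosen after their values were seen. Alternatives were a pseudocount of 0.1, no filter or a mean of at least 5 FPKM, 3 further scalings, fits of single comparisons, library weights, a replicate block, voom on recovered fragments, and left-out libraries. Scaling to the fragment total and leaving out 3 libraries together were added after the data were seen. The 3 were those that stood apart, so passing without them was favoured in advance, and 3 groups then keep 2 libraries each. Some genes that these rules name are not reported here.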

Additional observations from a re-analysis of the deposited data

Results flagged for a closer look

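From the test of the difference between the genotypes' heat responses, 6 genes are flagged. Each value is the log2 change in CHIP-KO cells minus that in wild-type cells (limma, n = 3 per group). Flags were limited to members and to at most 3 called genes, by size, from the other HSF and IER genes and from the PP2A subunits. Called genes of the other lists are not flagged. Ier5l rose less in CHIP-KO cells, at -0.64 (adjusted p = 0.0241). The immediate early genes Ier2 and Ier3 differed in the same direction, at -1.06 and -1.10 (limma adjusted p = 0.0454 and 0.0278). The PP2A subunit genes Ppp2r1a, Ppp2cb and Ppp2r2d fell with heat in wild-type cells and did not pass the test in CHIP-KO cells, and differed by 0.50, 0.42 and 0.44 (limma adjusted p = 0.0176, 0.0315 and 0.00964). Ppp2ca and Ppp2r2a also passed, at 0.37 and 0.30 (limma adjusted p = 0.0211 and 0.0104), and fell outside the limit of 3. Over all tested genes 35.2% were called in this comparison.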

How the results depend on the processing

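The heat calls of Ier5 and Ier5l and the lower Hsf1 of unheated CHIP-KO cells held under all 25 alternative settings. Counts of called genes moved by over 1.5 times as follows. For heat in wild-type cells, 7640 became 5087 with a mean of at least 5 FPKM, where fewer genes are tested. For heat in CHIP-KO cells, 2607 became 8758 with equal sums, 6201 under library weights, 1578 with a mean of at least 5 FPKM, 4043 for these groups alone, 3924 with voom, 4414 without both wild-type replicates 1, 4489 also without heated CHIP-KO replicate 1, and 1592 to 1687 without 1 unheated CHIP-KO library. Library weights moved the genotype count after heat from 5525 to 8590 and the interaction from 4581 to 7403. The cause was not tested.

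These changes of members turned sign. Equal sums gave -0.20 for Hsf1 with heat in CHIP-KO cells, -0.13 for Hsf2 and -0.046 for Hsbp1 with heat in wild-type cells, and -0.28 for Hsbp1 with heat in CHIP-KO cells, and the first and last of these were called (limma adjusted p = 0.0283 and 0.00178). The last was -0.036 after quantile normalization, -0.034 in voom and -0.032 when scaled to the fragment total. Hsf2 between heated genotypes was 0.060 under library weights, 0.028 without both wild-type replicates 1 and -0.079 to 0.028 over the fits that leave out libraries. Hsf4 with heat in CHIP-KO cells was 0.026 under library weights, 0.013 after quantile normalization, 0.047 without the 3 libraries that stood apart and -0.089 to 0.050 over those fits. Over the left-out libraries Hsbp1 between heated genotypes was -0.13 to 0.0043, and the Ier5 interaction -0.30 to 0.10, the lowest with all 3 left out.

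Same-numbered libraries did not deviate together in every pair, so the replicate number was not taken to pair them. Between the heated genotypes, deviations from the group means correlated at 0.33, 0.02 and 0.23 for replicates 1, 2 and 3. Differently numbered libraries there gave -0.32 to 0.13. In the other comparisons same-numbered libraries gave -0.12 to 0.022. What the heated libraries share by number was not tested. With the replicate number as a block the counts were 7637, 2606, 6299, 5525 and 4583 for heat in wild-type cells, heat in CHIP-KO cells, genotype without heat, genotype after heat and the interaction. It brought Ier5 between genotypes past the threshold (limma adjusted p = 0.0161 without heat and 0.0125 after it), Ier5l without heat (0.0375) and the Hsf1 interaction (0.0363), and lost Hsbp1 with heat in wild-type cells (0.0651). Median-of-ratios factors repeat the deposited scaling. Leaving out libraries lets the remaining groups set the spread. Hsf5 and Hsf2bp were too low to be tested.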
